A study of Mus musculus with 9 samples.

Results

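The iron uptake, storage and export genes described here are 10 genes, Tfrc, Slc11a2, Steap3, Lcn2, Fth1, Ftl1, Ncoa4, Slc40a1, Ireb2 and Aco1. The genes were chosen by name for their textbook roles in cellular iron handling, with earlier results of these data known. They are 10 of the 12148 genes that the platform annotation pairs with a probe holding a deposited value, and are read by 19 of 19281 such probes. Expression was measured on Illumina mouse bead arrays in tumor cells of 3 untreated triple-negative mammary carcinoma lines, with 3 arrays for each of 4T1, 4T07 and 67NR. The lines come from a single spontaneous mouse mammary tumor. The study used them as a series of falling metastatic capacity, with 4T1 the most metastatic line, 4T07 limited to small lung lesions and 67NR without metastases. All groups share the host, female Balb/c mice in which a ubiquitin promoter drives GFP (Ub-GFP), an inoculum of 500000 cells in the mammary fat pad, and growth over 2 to 4 weeks to about 10 mm in diameter. Cells without GFP and without the leukocyte antigen CD45 were isolated by flow sorting. The sources used here state neither the age of the mice nor whether the replicates of a line came from separate mice, so that the p-values below measure the spread between arrays, which may be technical. In such bulk samples fewer cells of a type and less RNA per cell cannot be told apart.

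Most cells take up iron as transferrin bound to the transferrin receptor. In the endosome the ferric iron is reduced by STEAP metalloreductases and leaves through the divalent metal transporter DMT1. Iron that is not used is stored in ferritin, a shell of heavy and light chains, is recovered when NCOA4 carries ferritin to the lysosome, and leaves the cell through ferroportin, the known exporter of iron in vertebrates. The iron regulatory proteins, encoded by Aco1 and Ireb2, bind iron-responsive elements in messenger RNAs when iron is scarce. This stabilizes the message of the transferrin receptor and blocks translation of ferritin and ferroportin, so that part of this control does not appear in RNA levels. Iron of the labile pool feeds the lipid peroxidation of ferroptosis, the form of cell death the study was concerned with.

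All levels below are normalized log2 intensities, in which a difference of 1 is a doubling. They were computed from the deposited intensities by background correction and quantile normalization, and a probe counts as detected at a detection p under 0.05. Levels are compared between lines for the same gene only, since probes differ in brightness. A gene is called higher or lower where the limma test, adjusted by the Benjamini-Hochberg method over all 10021 genes tested, gives an adjusted p under 0.05. All 10 iron genes passed the filter on dim probes. Slc40a1 was detected on no 67NR array and passed it through its signal in 4T1 and 4T07. Its calls against 67NR, which the counts below include, are therefore a description only.

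In 4T1 tumor cells, compared with 67NR cells, Tfrc, Lcn2 and Slc40a1 were higher, and Slc11a2 and Steap3 were lower. The same 5 genes were called in the same directions in 4T07 cells against 67NR cells, where Ncoa4 was called higher as well. Between 4T1 and 4T07 cells, Slc40a1 was higher and Slc11a2 lower in 4T1. Both ferritin chains and both genes of the iron regulatory proteins were called in none of the 3 comparisons (unadjusted p under 0.05 only for Aco1, between 4T07 and 67NR and between 4T1 and 4T07).

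In numbers, 3 of the 10 genes were higher and 2 lower in 4T1 than in 67NR, 5 in all, beside 49.8% of all genes tested (23.2% higher and 26.6% lower). In 4T07 against 67NR 4 were higher and 2 lower, beside 45.3% of all genes (21.9% higher and 23.4% lower). In 4T1 against 4T07 1 was higher and 1 lower, beside 29.8% of all genes (14% higher and 15.8% lower). The counts lie close to the shares over all genes, so that they are not a result about iron genes as a group. The median log2 fold change of the 10 genes was 0.28, 0.10 and 0.12 in the 3 comparisons, in the same order, and that of all genes was -0.05, -0.05 and -0.01. Both comparisons against 67NR use the same 67NR arrays and are therefore not independent of each other.

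**Figure D1:**
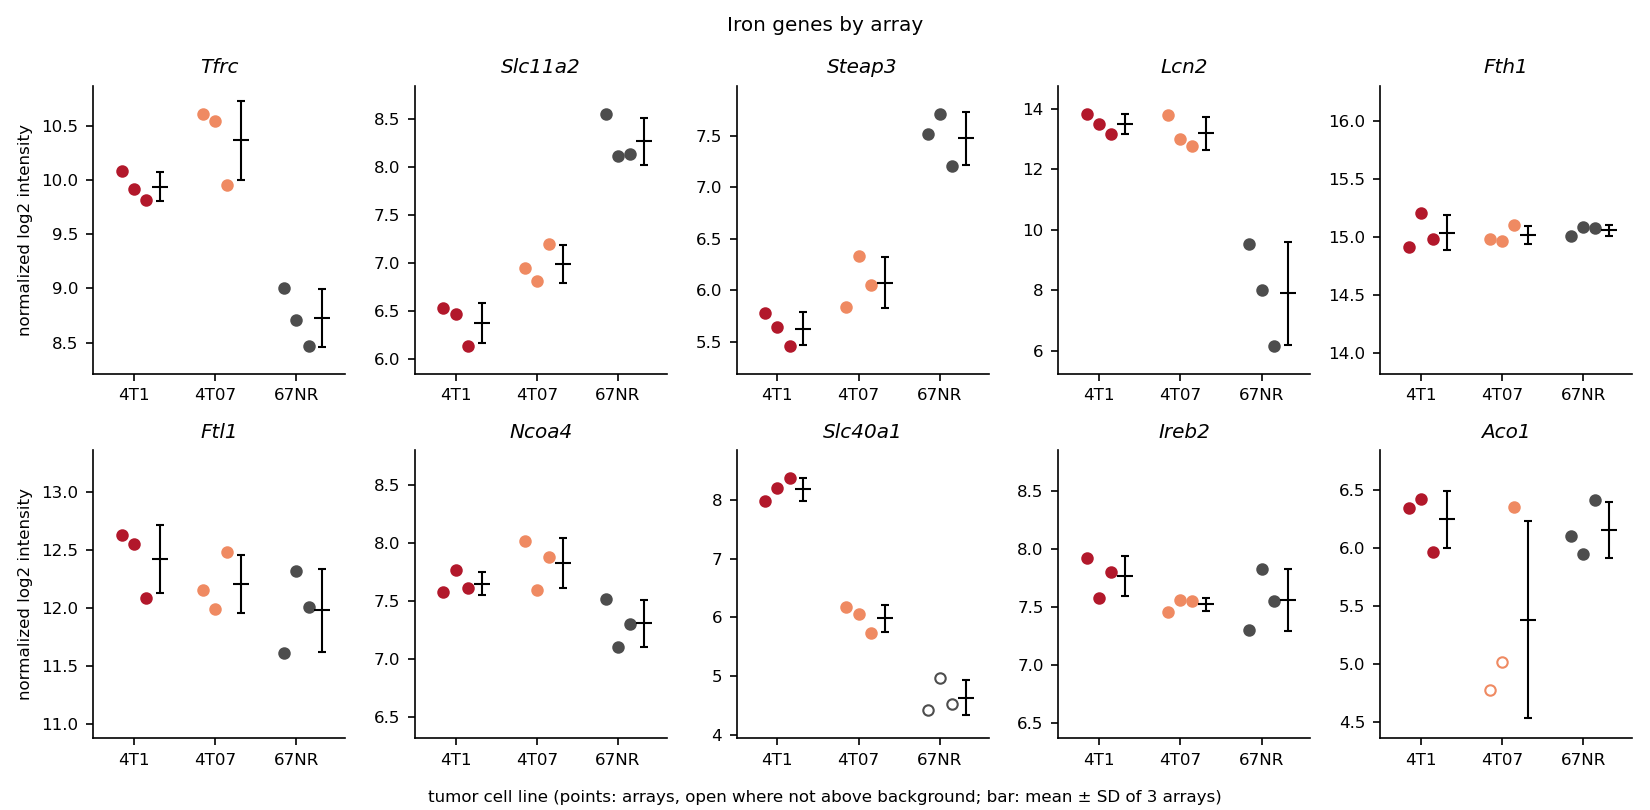
Normalized log2 intensity (y axis, a separate range for each gene) of the 10 iron genes on each array of 4T1, 4T07 and 67NR (x axis). Points are arrays, open where the probe was not detected, and bars give the mean ± SD of 3 arrays. Tfrc, Lcn2 and Slc40a1 lie higher, and Slc11a2 and Steap3 lower, on all 6 arrays of 4T1 and 4T07 than on the 3 arrays of 67NR.

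Tfrc encodes the transferrin receptor, through which most cells import iron. Its level was 10.08, 9.92 and 9.82 on the 4T1 arrays, 10.61, 10.54 and 9.95 on the 4T07 arrays, and 9.0, 8.71 and 8.47 on the 67NR arrays. Every array of 4T1 and of 4T07 lay above every 67NR array, while the ranges of 4T1 and 4T07 overlapped. Tfrc was 2.32-fold higher in 4T1 than in 67NR (log2 fold change 1.22, SE 0.20, limma adjusted p = 0.000331) and 3.12-fold higher in 4T07 than in 67NR (1.64, SE 0.20, adjusted p = 3.38e-05). In order of level, 4T07 came first, then 4T1, then 67NR. The first 2 did not differ beyond their spread (log2 fold change of 4T1 over 4T07 -0.43, 95% interval -0.86 to 0.01, adjusted p = 0.13), although without 4T07 replicate 3 the difference was -0.64 and passed the threshold (adjusted p = 0.0194). A second Tfrc probe gave 1.10 and 1.49 in the comparisons with 67NR, both called.

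RefSeq gives Tfrc 2 transcription start sites. The 30 bases around the first of them are shown because they hold the core letters of the hypoxia response element, and Tfrc is a textbook target of the hypoxia-inducible factors. They lie at chr16:32608882-32608911 on the plus strand of GRCm38.p6, and capitals mark the ACGTG core, whose bases run from position -2 to position 3 of the start site, counted with position 1 as the first transcribed base and no position 0.
Tfrc: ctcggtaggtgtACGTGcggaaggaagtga
These letters, on either strand, occur in 19.6% of the 32851 promoter windows of the same 300 bases in the RefSeq table, and the match is a description and not a binding site.

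Slc11a2 encodes DMT1, which moves ferrous iron out of the endosome and across the intestinal brush border. Its level was 6.53, 6.47 and 6.14 on the 4T1 arrays, 6.95, 6.81 and 7.20 on the 4T07 arrays, and 8.55, 8.11 and 8.13 on the 67NR arrays. The 3 lines did not overlap, with 67NR highest and 4T1 lowest. The level in 4T1 was 0.271 times that in 67NR (log2 fold change -1.88, SE 0.17, adjusted p = 3.16e-06), and the level in 4T07 was 0.413 times that in 67NR (-1.28, SE 0.17, adjusted p = 9.17e-05). The difference between 4T1 and 4T07 was smaller (-0.61, SE 0.17, adjusted p = 0.0216), and it missed the threshold under 3 other ways of processing and without 4T1 replicate 3, 4T07 replicate 1 or 4T07 replicate 3.

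For Slc11a2 the result depended on the probe. Its other probes gave log2 fold changes of -1.01 and -0.62 in 4T1 against 67NR, both called lower, but of -0.33 (adjusted p = 0.124) and -0.43 (adjusted p = 0.16) in 4T07 against 67NR, not called. Without any single 67NR array another probe became the brightest of the gene and took its place, so that the difference of 4T07 and 67NR shrank to between -0.45 and -0.25 and missed the threshold. The difference of 4T1 and 67NR shrank likewise, to -0.93, -0.97 and -1.13 without 67NR replicate 1, 2 and 3, and was still called. With the probe kept both calls held. DMT1 messages are known to differ in their 3' ends, and which of them each probe reads was not determined here.

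Steap3 encodes the endosomal ferrireductase that prepares iron for DMT1. Its level was 5.78, 5.64 and 5.46 on the 4T1 arrays, 5.84, 6.33 and 6.05 on the 4T07 arrays, and 7.51, 7.71 and 7.20 on the 67NR arrays. No array of 4T1 or 4T07 reached the lowest 67NR array. The level in 4T1 was 0.279 times (log2 fold change -1.84, SE 0.18, adjusted p = 4.30e-06), and in 4T07 0.380 times (-1.40, SE 0.18, adjusted p = 4.95e-05), that in 67NR. Between 4T1 and 4T07 the difference was -0.45 (95% interval -0.83 to -0.06, adjusted p = 0.0777), not called although the arrays did not overlap. The other 2 probes of Steap3 were dimmer. Both were called lower in 4T1 than in 67NR, by -0.92 and -0.82, and neither was called in 4T07 against 67NR (-0.21 and -0.46). With the probes used, Tfrc was thus higher, and Slc11a2 and Steap3, which act in sequence on the same endosomal route, lower in both lines than in 67NR. In 4T07 the lower calls of Slc11a2 and Steap3 rested on the brightest probe of each gene, and no other probe of either was called.

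Lcn2 encodes lipocalin 2, a secreted protein that binds iron through siderophores, is a component of neutrophil granules, and is also made by epithelial cells. Its level was 13.83, 13.48 and 13.17 on the 4T1 arrays, 13.80, 13.00 and 12.76 on the 4T07 arrays, and 9.54, 8.0 and 6.17 on the 67NR arrays. In deposited intensities these were 14574.5, 14120.8 and 7421.9 in 4T1, 13589.8, 7702.4 and 6946.7 in 4T07, and 971.4, 306.8 and 145.4 in 67NR. The 67NR arrays were far apart from each other, yet the highest of them lay well below the lowest array of 4T1 or 4T07.

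Lcn2 had the widest difference of the 10 genes, 48.1-fold in 4T1 over 67NR (log2 fold change 5.59, 95% interval 4.20 to 6.98, adjusted p = 1.91e-05) and 38.9-fold in 4T07 over 67NR (5.28, interval 3.89 to 6.67, adjusted p = 3.39e-05). The levels of 4T1 and 4T07 did not differ beyond their spread (0.31, interval -1.08 to 1.70, adjusted p = 0.763). The standard deviation was 0.33 in 4T1, 0.55 in 4T07 and 1.69 in 67NR. Leaving out each array in turn moved the log2 fold change of 4T1 over 67NR between 4.72 and 6.38.

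Since neutrophils carry Lcn2, their markers are given beside it. Of 12 neutrophil markers 9 had a named probe. Their summed normalized intensity was 375 to 456 on the 4T1 arrays, 476 to 627 on the 4T07 arrays and 407 to 1850 on the 67NR arrays. S100a8, which neutrophils express strongly, stood at 7.28, 7.95 and 7.48 in 4T1, 8.15, 7.98 and 8.63 in 4T07, and 10.67, 9.55 and 7.57 in 67NR. Within 67NR the arrays had the same order for S100a8 as for Lcn2. Elane (5.07, 5.22 and 5.27) and Csf3r (4.73, 5.15 and 5.23) had the reverse order there. S100a9 (5.52, 6.09 and 4.47) had neither order. The granule genes Mpo, Camp and Ngp and the neutrophil gene Retnlg were detected on none of the 9 arrays, and Ltf on 1 array, of 4T1. Elane and Csf3r were each detected, close to background, on 2 arrays of 4T1, 1 of 4T07 and 2 of 67NR, and S100a9 on 0 of 4T1, 1 of 4T07 and 2 of 67NR. Of 4 neutrophil markers tested, 1 was called in 4T1 against 67NR and 0 in 4T07 against 67NR. These are 25% and 0% of the 4, beside 49.8% and 45.3% of all genes. The marker called was S100a8, lower in 4T1 than in 67NR (log2 fold change -1.69, adjusted p = 0.0295), with overlapping arrays. Whether other cells add to Lcn2 in 67NR was not tested.

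The sequence upstream of Lcn2 is shown because this gene had the widest difference between lines. The window is chr2:32387740-32387989 on the minus strand of GRCm38.p6, 250 bases that end at the base before the RefSeq start site.
Lcn2: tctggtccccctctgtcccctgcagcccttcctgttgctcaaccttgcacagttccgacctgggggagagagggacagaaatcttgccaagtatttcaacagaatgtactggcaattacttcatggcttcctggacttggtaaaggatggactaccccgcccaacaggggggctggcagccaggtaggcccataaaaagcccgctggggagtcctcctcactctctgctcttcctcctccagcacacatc
Neither this stretch nor the 50 bases after it held the hypoxia core ACGTG, the antioxidant response element core TGACNNNGC, the loop CAGTGN of the iron-responsive element or the NF-kB consensus on either strand, so that no letters are in capitals. These motifs occur in 19.6%, 12.4%, 55.8% and 8.46% of the RefSeq windows. Iron-responsive elements act in messenger RNA, so that the bases upstream of the start cannot show one. The missing matches are a description and do not show that Lcn2 lacks regulation by any of these routes. RefSeq windows were found for 8 of the 10 genes, all but Slc11a2 and Slc40a1.

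Fth1 and Ftl1 encode the heavy and the light chain of ferritin, and neither was called in any comparison. Fth1 stood at 14.92, 15.21 and 14.99 on the 4T1 arrays, 14.99, 14.97 and 15.11 on the 4T07 arrays, and 15.01, 15.09 and 15.08 on the 67NR arrays, and all ranges overlapped. Its log2 fold change was -0.02 in 4T1 over 67NR (95% interval -0.30 to 0.27, adjusted p = 0.925), -0.03 in 4T07 over 67NR (interval -0.32 to 0.25) and 0.02 in 4T1 over 4T07 (interval -0.26 to 0.30). The Fth1 probe ranked between 2 and 24 among 45281 probes on every array. At this end of the scale quantile normalization gives nearly the same value to each array and bead signals approach their ceiling, and whether this narrowed a difference in Fth1 was not tested. Ferritin genes also have many near-identical processed copies in the genome, and how much of the signal comes from them is uncertain.

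Ftl1, whose signal lay farther from the top of the scale, stood at 12.63, 12.55 and 12.09 in 4T1, 12.16, 11.99 and 12.48 in 4T07, and 11.61, 12.32 and 12.01 in 67NR. Its ranges overlapped in all 3 comparisons. The log2 fold change was 0.45 in 4T1 over 67NR (95% interval -0.02 to 0.91, adjusted p = 0.105), 0.23 in 4T07 over 67NR (interval -0.24 to 0.70) and 0.21 in 4T1 over 4T07 (interval -0.25 to 0.68). Single arrays decided the call between 4T1 and 67NR. Without 4T1 replicate 3 the value was 0.62 (adjusted p = 0.0434), and without 67NR replicate 2 it was 0.61 (adjusted p = 0.047).

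Ncoa4 encodes the cargo receptor that takes ferritin to the lysosome. Its brightest probe stood at 7.57, 7.76 and 7.61 in 4T1, 8.01, 7.59 and 7.88 in 4T07, and 7.51, 7.10 and 7.30 in 67NR. All 67NR arrays lay below those of the other lines, by small margins. Ncoa4 was called higher in 4T07 than in 67NR (1.44-fold, log2 fold change 0.52, SE 0.16, adjusted p = 0.0174) and not in 4T1 against 67NR (0.34, 95% interval 0.00 to 0.69, adjusted p = 0.0889). That call ended without 4T07 replicate 1 (0.43) or 67NR replicate 2 (0.42), with the mean of its 3 probes (0.21, adjusted p = 0.259) and with the methods' test. A second, dimmer probe pointed the other way, at -0.27 in 4T07 against 67NR and -0.23 in 4T1 against 67NR, neither called. The third, not detected in 67NR, was at least 1.22-fold higher in 4T1 than in 67NR (measured means 5.43 and 4.72, adjusted p = 0.016). It passed the filter through the other lines, so that this call is a description only.

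Slc40a1 encodes ferroportin and separated all 3 lines. Its level was 7.98, 8.20 and 8.37 on the 4T1 arrays, 6.17, 6.06 and 5.73 on the 4T07 arrays, and 4.42, 4.97 and 4.52 on the 67NR arrays, where it was not detected. The lines did not overlap, and the order was 4T1, 4T07, 67NR. The difference between 4T1 and 4T07 passed the threshold. Those against 67NR passed it too, but are a description only, since the gene passed the filter through 4T1 and 4T07. In deposited intensities 4T1 had 355.3, 507.2 and 354.3, 4T07 had 153.7, 145.6 and 133.5, and 67NR had 103.1, 113.7 and 92.1, beside array medians of 89.9 to 140.2.

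Since 67NR gives only a bound, Slc40a1 was at least 8.22-fold higher in 4T1 (measured means 8.18 and 4.64, adjusted p = 2e-08) and at least 1.79-fold higher in 4T07 than in 67NR (5.99 and 4.64, adjusted p = 0.000101). These bounds set the mean of the brighter line against the lowest signal of a detected probe on each 67NR array, or the probe's own signal where that was higher. In 4T1 over 4T07, both detected, Slc40a1 was 4.59-fold higher (log2 fold change 2.20, SE 0.18, adjusted p = 4.97e-06). With the background correction left out and all else kept, the measured log2 fold changes were 1.88 in 4T1 over 67NR, 0.56 in 4T07 over 67NR and 1.32 in 4T1 over 4T07. In the authors' deposited log2 values they were 1.66, 0.49 and 1.17, and all were still called. Macrophages express ferroportin strongly, and the summed intensity of 10 named macrophage markers was 472 to 614 in 4T1, 848 to 884 in 4T07 and 1010 to 1410 in 67NR. Most of this sum came from Cd14 and Lyz2, Mertk was detected in 4T07 only, Adgre1, Cd163 and C1qa were detected on no array, and the part of macrophages in Slc40a1 was not tested.

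Ireb2 and Aco1 encode the iron regulatory proteins IRP2 and IRP1. Ireb2 stood at 7.92, 7.58 and 7.80 in 4T1, 7.46, 7.56 and 7.55 in 4T07, and 7.30, 7.83 and 7.55 in 67NR. Its ranges in 4T1 and in 4T07 both overlapped that of 67NR, with log2 fold changes of 0.21 (95% interval -0.14 to 0.56, adjusted p = 0.3) and -0.04 (interval -0.38 to 0.31, adjusted p = 0.873). The 2 probes of Ireb2 disagreed. In 4T1 against 4T07 the brighter gave 0.25 (not called) and the other -0.70, called lower (adjusted p = 0.0136, over all probes), so that no direction can be given for Ireb2 there.

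Aco1, whose product is also the cytosolic aconitase when it holds an iron-sulfur cluster, stood at 6.35, 6.43 and 5.97 in 4T1, 4.78, 5.02 and 6.36 in 4T07, and 6.11, 5.95 and 6.42 in 67NR. On 2 of the 4T07 arrays it was not detected, and on the other it was as high as in the remaining lines. It was called in no comparison (4T1 over 67NR 0.09, 4T07 over 67NR -0.78 with adjusted p = 0.0821, 4T1 over 4T07 0.87 with adjusted p = 0.0752). Without 4T07 replicate 3, the array with the high value, the measured differences were -1.25 (adjusted p = 0.000448) in 4T07 against 67NR and 1.34 (adjusted p = 0.000642) in 4T1 against 4T07, so that a single array decided the call. Neither of the 4T07 arrays then left measured Aco1 above background, and the size of these differences has no exact value.

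**Figure D2:**
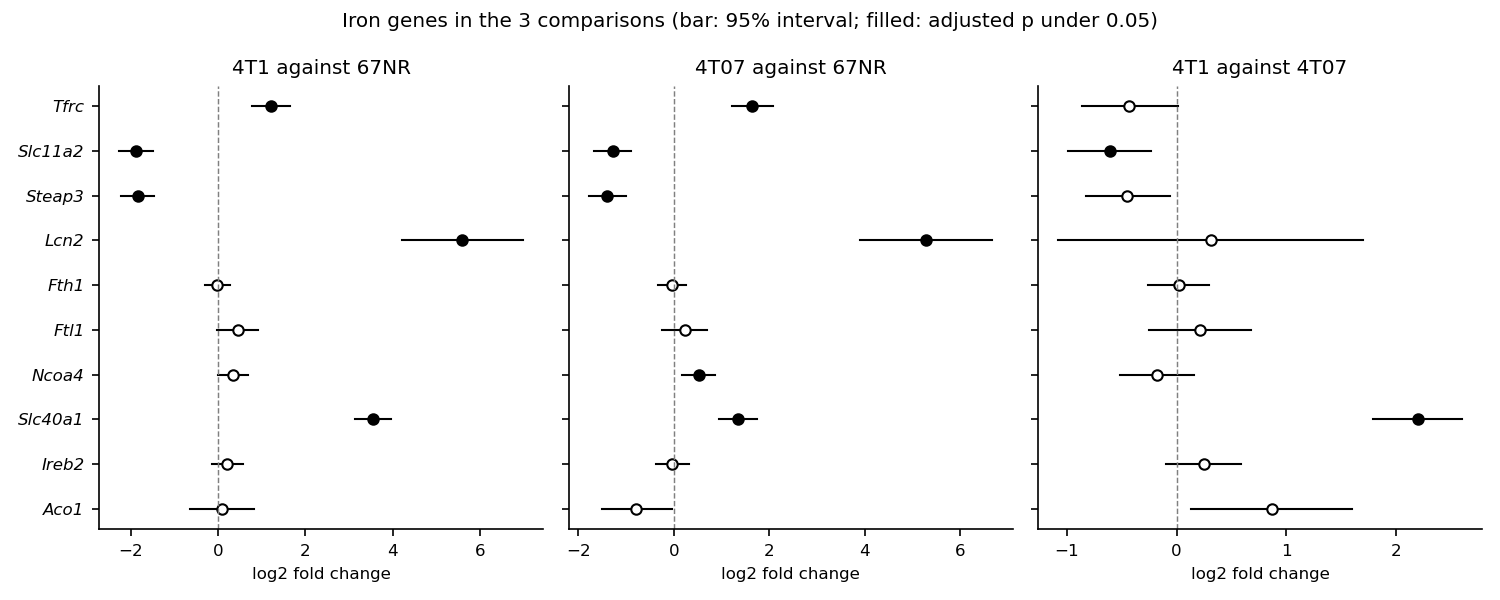
Log2 fold change (x axis, a separate range for each panel) of the 10 iron genes (rows) in the 3 comparisons, from left to right 4T1 over 67NR, 4T07 over 67NR and 4T1 over 4T07, with 95% intervals from the limma fit and filled points where the adjusted p is under 0.05. Lcn2 (5.59 and 5.28) stands farthest to the right in both comparisons with 67NR. The points of Slc40a1 there are measured differences from a line in which it was not detected and give only a bound, and Slc11a2 and Steap3 lie to the left of 0 in all 3 panels.

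Of the 10 genes, 6 were read by more than 1 probe. Over all 19 probes, 5 were higher and 6 lower in 4T1 than in 67NR, beside 46% of all probes called. In 4T07 against 67NR 5 were higher and 2 lower (41.6% of all probes), and in 4T1 against 4T07 1 was higher and 4 lower (26% of all probes). The probes of Tfrc, Slc11a2 and Steap3 agreed in direction in every comparison. Those of Fth1, Ncoa4 and Ireb2 did not in at least 1 comparison, where the differences were mostly small.

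**Figure D3:**
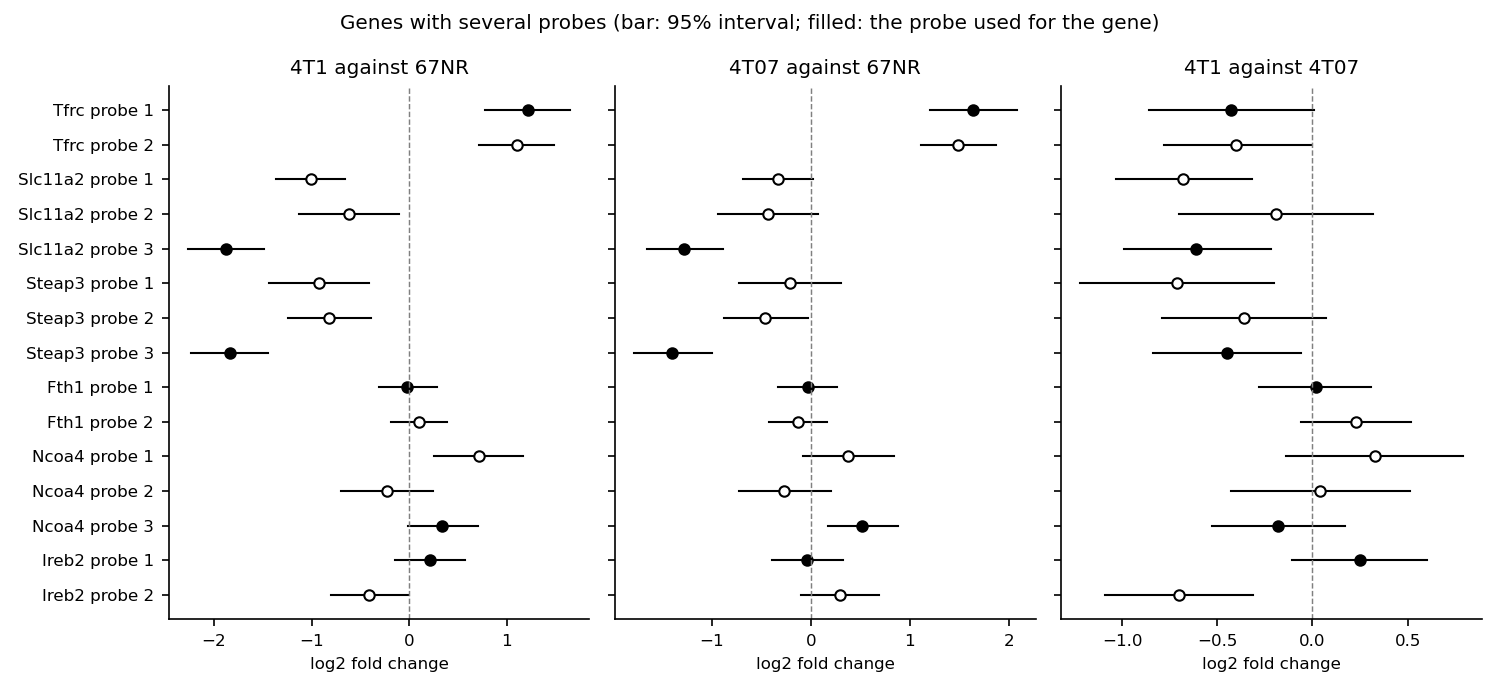
Log2 fold change with its 95% interval (x axis, a separate range for each panel) of each of the 15 probes of the 6 genes read by several probes (rows), in the 3 comparisons. The filled point is the probe used for the gene. The used probes of Slc11a2 and Steap3 lie farther from 0 than their other probes in both comparisons with 67NR, and the probes of Ireb2 fall on opposite sides of 0.

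The wider iron pathway was described with 6 lists of 86 further genes, of which 55 were tested, 10 had a named probe that stayed below the filter and 21 had no named probe. In 4T1 against 67NR 11 of the 55 were higher and 16 lower, in 4T07 against 67NR 10 were higher and 12 lower, and in 4T1 against 4T07 8 were higher and 15 lower. These are 49.1%, 40% and 41.8% of the 55, beside 49.8%, 45.3% and 29.8% of all genes. Slc39a14, Hamp2, Tmprss6, Erfe, Hebp1 and Hp were each detected on no array of a line. They passed the filter through the lines where they were higher, and their calls against a line without detection are a description only.

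Among 6 further uptake genes 3 were higher in 4T1 and 4 in 4T07 than in 67NR (beside 23.2% and 21.9% of all genes), and in 4T1 against 4T07 1 was higher and 4 were lower (beside 14% and 15.8%). With 6 genes these counts are a description only. Scara5, a receptor for ferritin on the cell surface, stood at 6.42, 6.05 and 7.60 in 4T1, 11.97, 11.71 and 11.28 in 4T07, and 5.30, 4.85 and 4.74 in 67NR, where it was detected on 1 array of 3. The 4T07 arrays lay far above all others. Scara5 was higher in 4T07 than in 67NR (measured means 11.65 and 4.96, adjusted p = 1.98e-08), by a factor that has no exact value since 2 of the 3 67NR arrays did not measure it, and its level in 4T1 was 0.0320 times that in 4T07 (-4.96, SE 0.34, adjusted p = 8.97e-07).

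Hfe, which binds the transferrin receptor and takes part in iron sensing, had its highest level in 4T07 as well (mean 7.52 in 4T1, 8.33 in 4T07 and 6.70 in 67NR), with every step called. Slc39a14, an importer of iron that is not bound to transferrin, was detected in 4T1 and 4T07 but on no 67NR array and was at least 1.61-fold higher in 4T1 than in 67NR (adjusted p = 0.00184). Steap1, a relative of Steap3, was called higher in 4T07 than in 67NR (0.64, adjusted p = 0.039), although the arrays overlapped at 8.19. Steap1 was lower in 4T1 than in 4T07 (-0.98, adjusted p = 0.00736).

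Of the 3 further export genes 1 was higher and 1 lower in 4T1 than in 67NR, 2 were higher in 4T07 than in 67NR, and all 3 were lower in 4T1 than in 4T07. Of all genes 23.2% were higher and 26.6% lower in 4T1 against 67NR. The share higher in 4T07 against 67NR was 21.9%, and the share lower in 4T1 against 4T07 was 15.8%. With 3 genes these counts are a description only. Cp, the ferroxidase ceruloplasmin that helps ferroportin release iron, stood at 12.12, 12.10 and 12.11 in 4T1, 13.17, 13.02 and 12.94 in 4T07, and 10.65, 10.99 and 10.81 in 67NR. The lines did not overlap, with log2 fold changes of 1.29 in 4T1 over 67NR, 2.23 in 4T07 over 67NR and -0.94 in 4T1 over 4T07, all called. Slc40a1 and Cp, which act together, thus both lay above 67NR in both lines, with the higher level in 4T1 for Slc40a1 and in 4T07 for Cp.

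Hamp2 encodes hepcidin 2, a mouse paralog of the liver hormone hepcidin that brings about the degradation of ferroportin. It stood at 8.47, 9.01 and 9.90 in 4T07, was detected on no 4T1 array, and was detected on 1 of 3 67NR arrays (4.77, 4.85 and 5.2). It was at least 16.8-fold lower in 4T1 than in 4T07 (adjusted p = 7.37e-07). The hepcidin gene Hamp itself had no named probe here, and whether the Hamp2 probe also reads it is uncertain. Flvcr1, described as an exporter of heme, was lower in 4T1 than in 67NR (-0.88, adjusted p = 0.00128) and in 4T07 (-0.76, adjusted p = 0.00662).

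Among 7 further regulators, 3 were higher and 2 lower in 4T1 than in 67NR, 3 were higher in 4T07 than in 67NR, and 1 was higher and 1 lower in 4T1 than in 4T07. The genes called are 71.4%, 42.9% and 28.6% of the 7, beside 49.8%, 45.3% and 29.8% of all genes, and are a description only. Hfe is on this list as well as among the uptake genes and is counted in both, as higher in both comparisons with 67NR and as the gene lower in 4T1 than in 4T07. Erfe, or erythroferrone, a hormone known from erythroblasts that lowers hepcidin, stood at 9.73, 9.38 and 9.72 in 4T1, 8.70, 9.17 and 9.64 in 4T07, and 4.48, 4.43 and 4.48 in 67NR, where it was not detected. It was at least 22.1-fold higher in 4T1 (adjusted p = 2.28e-09) and at least 16.3-fold higher in 4T07 (adjusted p = 6.13e-09) than in 67NR. The erythroid marker Hba-a1 was detected on no array of 4T1 or 4T07 and on all 3 of 67NR, and the summed intensity of 4 erythroid markers was 111 to 118 in 4T1, 111 to 121 in 4T07 and 288 to 510 in 67NR. The part of erythroid cells in the Erfe signal was not tested.

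Tmprss6, the membrane protease matriptase-2 that also lowers hepcidin in liver, stood at 7.47, 7.65 and 8.61 in 4T1, was detected on 1 of 3 4T07 arrays and on no 67NR array. It was at least 6.80-fold higher in 4T1 than in 67NR (adjusted p = 5.05e-07) and was higher in 4T1 than in 4T07 (measured means 7.91 and 5.08, adjusted p = 1.14e-05), where 2 of the 3 4T07 arrays did not measure it. Zfp36, which encodes the RNA-destabilizing protein tristetraprolin, was lower in 4T1 than in 67NR (-1.73, SE 0.43, adjusted p = 0.00611), with 13.40, 13.41 and 11.42 in 4T1 against 14.51, 14.85 and 14.05 in 67NR.

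**Figure D4:**
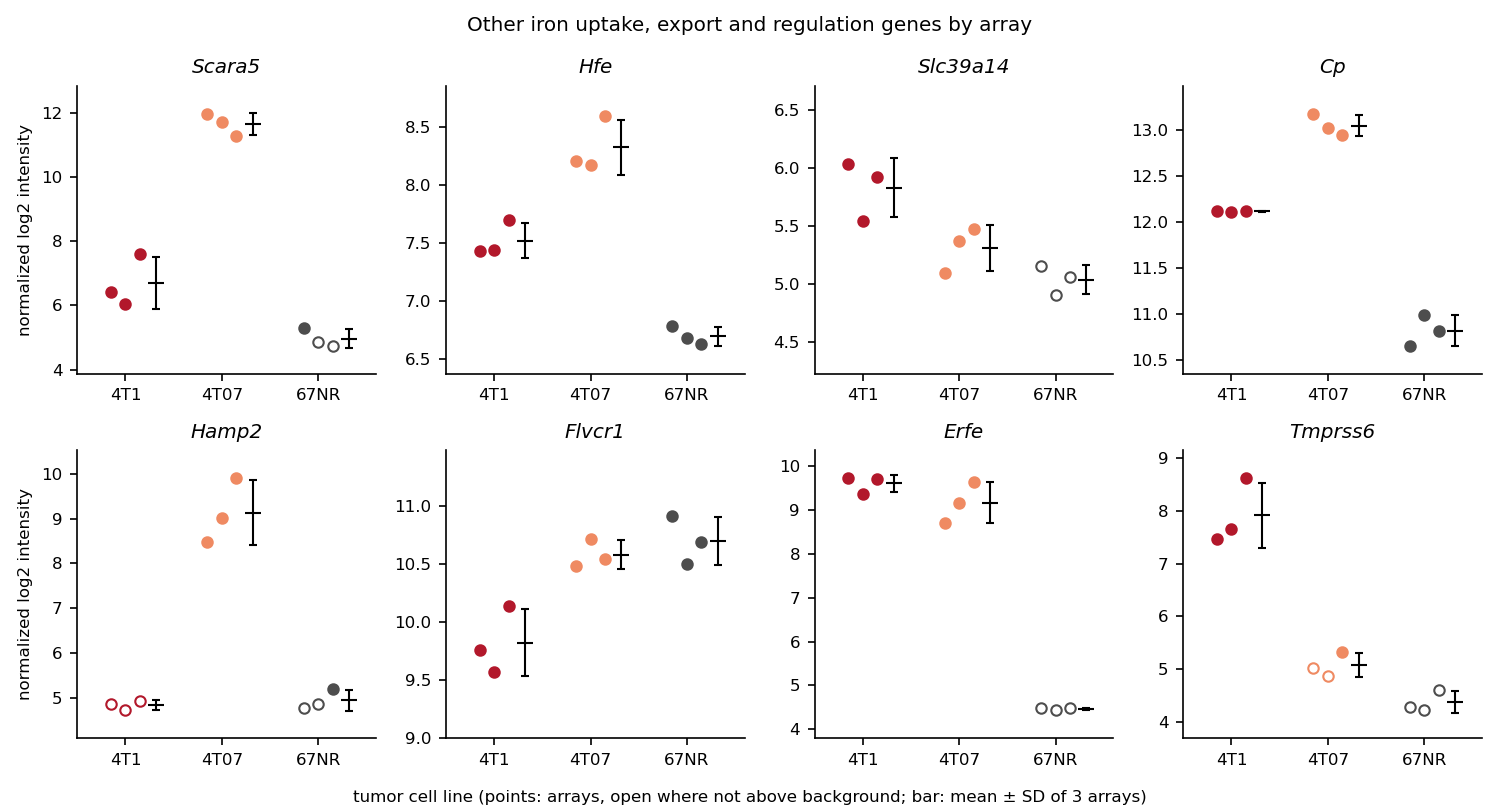
Normalized log2 intensity (y axis, a separate range for each gene) of 8 further iron uptake, export and regulation genes on each array of 4T1, 4T07 and 67NR (x axis). Points are arrays, open where the probe was not detected, and bars give the mean ± SD of 3 arrays. Scara5 and Hamp2 are highest in 4T07, Tmprss6 in 4T1, and Erfe is high in 4T1 and 4T07 and not detected in 67NR.

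Of 3 further storage genes, 2 were lower in 4T1 and 1 was lower in 4T07 than in 67NR (beside 26.6% and 23.4% of all genes). With 3 genes these counts are a description only. Pcbp2, an iron chaperone that loads ferritin, was lower in 4T1 (-0.42, adjusted p = 0.0134) and in 4T07 (-0.34, adjusted p = 0.0379) than in 67NR. Herc2, a ubiquitin ligase that turns over NCOA4, was lower in 4T1 than in 67NR (-0.47, adjusted p = 0.0249). The iron-sulfur and mitochondrial list held 18 tested genes, of which 1 was higher and 5 lower in each comparison with 67NR, and 4 higher and 5 lower in 4T1 against 4T07. The genes called are 33.3%, 33.3% and 50% of the 18, beside 49.8%, 45.3% and 29.8% of all genes. Cisd1, or mitoNEET, an iron-sulfur protein of the outer mitochondrial membrane, was the member with the largest fall in both lines. It stood at 6.76, 6.97 and 6.62 in 4T1, 6.97, 6.88 and 7.04 in 4T07, and 8.16, 8.43 and 8.30 in 67NR, with log2 fold changes of -1.51 (adjusted p = 3.26e-06) in 4T1 over 67NR and -1.34 (adjusted p = 1.08e-05) in 4T07 over 67NR.

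The cluster assembly factor Iba57 (-1.08) and the mitochondrial transporter Abcb8 (-1.02) had lower levels in 4T1 cells, both against 67NR and against 4T07 (-0.64 and -0.71). Glrx5, a mitochondrial glutaredoxin that passes on iron-sulfur clusters, was the gene of this list higher in 4T1 than in 67NR (0.91, adjusted p = 0.00671), and it was higher in 4T1 than in 4T07 too (0.99, adjusted p = 0.00778). In 4T07 against 67NR, the iron-sulfur scaffold Nfu1 was lower (-0.92, adjusted p = 0.0126) and Slc25a28, the mitochondrial iron importer mitoferrin 2, was higher (0.62, adjusted p = 0.00712).

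Of 19 tested genes of heme synthesis, breakdown and transport, 4 were higher and 6 lower in 4T1 than in 67NR, 1 higher and 6 lower in 4T07 than in 67NR, and 2 higher and 3 lower in 4T1 than in 4T07. The genes called are 52.6%, 36.8% and 26.3% of the 19, beside 49.8%, 45.3% and 29.8% of all genes. Blvrb, a biliverdin and flavin reductase of heme breakdown, stood at 9.63, 9.77 and 9.61 in 4T1, 10.19, 10.17 and 10.15 in 4T07, and 11.37, 11.34 and 11.34 in 67NR. The lines were well apart and the replicates close together, with log2 fold changes of -1.68 in 4T1 over 67NR, -1.18 in 4T07 over 67NR and -0.50 in 4T1 over 4T07, all called. Uros, an enzyme of heme synthesis, was lower in 4T1 (-1.43, adjusted p = 0.00045) and in 4T07 (-1.74, adjusted p = 0.000115) than in 67NR. The erythroid marker Hba-a1 was detected on all 3 arrays of 67NR and on no array of 4T1 or 4T07. Hbb-bs was detected on all 3 arrays of 67NR and on 1 array each of 4T1 and 4T07. Both erythroid markers that could be tested passed the filter largely through 67NR, so that their lower calls in 4T1 and 4T07 are a description only. Their measured median log2 fold change of -2.06 in each comparison has no exact size. The part of erythroid cells in the heme genes that were higher in 67NR was not tested. Hebp1, a heme-binding protein, was detected in 4T1 alone of the 3 lines and passed the filter through that line only. It was at least 2.14-fold above 67NR (adjusted p = 1.91e-05) and at least 2.22-fold above 4T07 (adjusted p = 4.24e-05). Hp, the hemoglobin-binding haptoglobin, was detected on no 67NR array and was at least 1.66-fold higher in 4T07 than in 67NR (adjusted p = 0.00202).

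**Figure D5:**
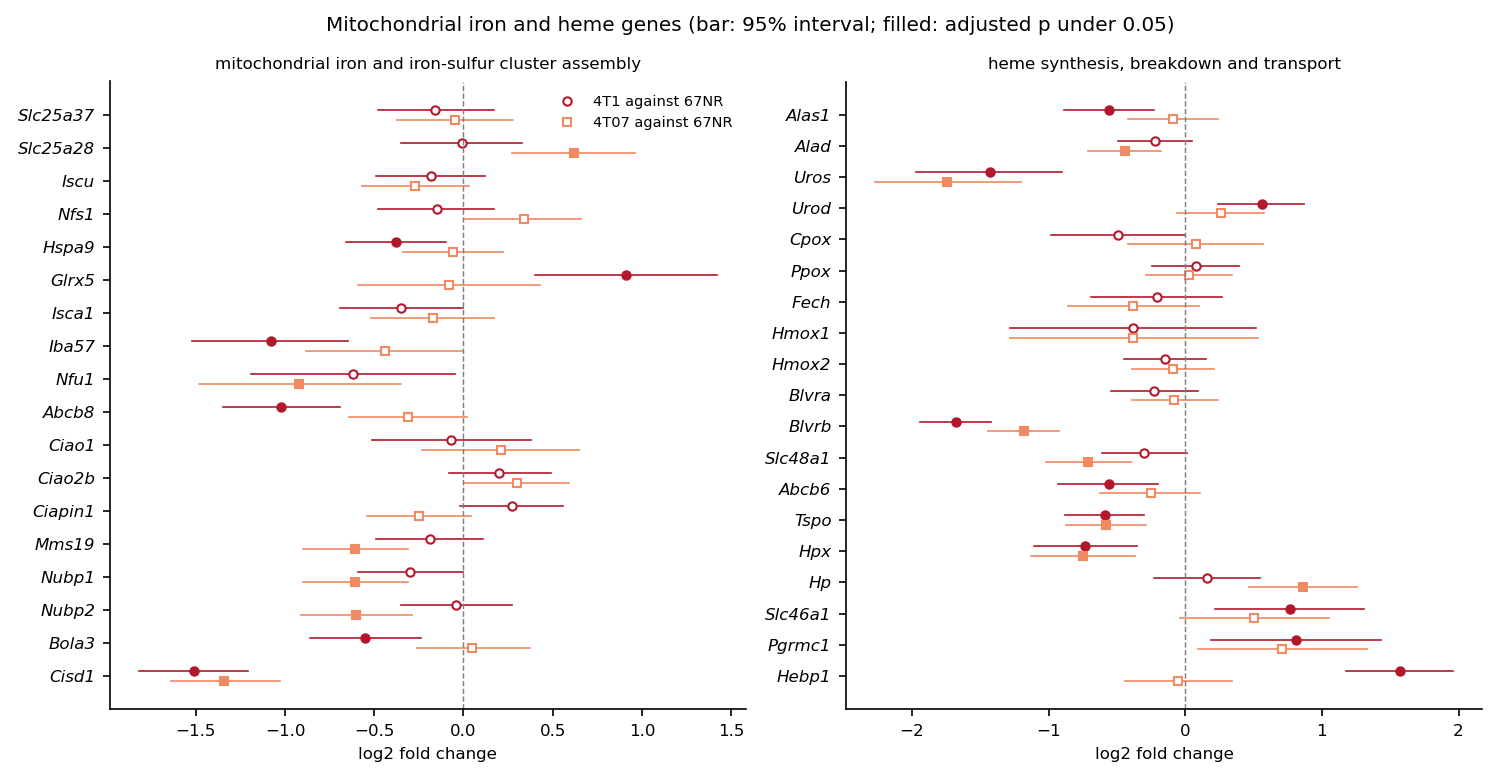
Log2 fold change with its 95% interval (x axis) of the tested mitochondrial iron and iron-sulfur genes (left, 18 rows) and heme genes (right, 19 rows) in 4T1 against 67NR (circles) and 4T07 against 67NR (squares), filled where the adjusted p is under 0.05. Cisd1 and, among the heme genes, Blvrb and Uros lie farthest to the left in both comparisons. Hebp1 is filled to the right for 4T1 only.

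The genes with the profile most like that of an iron gene were sought for the 3 members with the widest range of line means, as the smallest root mean square difference between levels centered on their mean over the 9 arrays. For Lcn2 these were Wnt7b (0.72), Itgb4 (0.77) and Cyba (0.78). For Slc40a1 they were Gper1 (0.23), Bace1 (0.24) and Hoxa5 (0.27), and for Slc11a2 they were Zmynd8 (0.16), Blvrb (0.19) and Apol7a (0.19). Hoxa5 averaged 12.67 in 4T1, 10.73 in 4T07 and 9.10 in 67NR, and Bace1 11.06 in 4T1, 8.62 in 4T07 and 7.25 in 67NR, steps much like those of Slc40a1. The distances of Lcn2 are larger, and the SD of Wnt7b within 67NR was 0.52, beside 1.69 for Lcn2.

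Over the whole series, 16025 to 17566 probes were detected per array. Epithelial markers, which should mark carcinoma cells, were low in 67NR. Of 10 with a named probe, Krt8 was detected on 3 arrays of 67NR, Cldn7 on 2, and Krt7 and Cdh1 on 1 each. The others, Krt18 among them, were detected on no 67NR array. The summed intensity of the epithelial markers was 36500 to 45100 in 4T1, 5050 to 8140 in 4T07 and 304 to 312 in 67NR. Of 6 macrophage markers tested, 4 were lower and 0 higher in 4T1 than in 67NR, Lyz2 among the lower (log2 fold change -2.48, adjusted p = 6.59e-05). In 4T07 against 67NR 3 were lower and 1 higher. These are 66.7% of the 6 in each comparison, beside 49.8% and 45.3% of all genes. Mrc1 was detected in 67NR only and Mertk in 4T07 only. Of 7 fibroblast and pericyte markers tested, 1 was higher and 4 were lower in 4T1 than in 67NR. In 4T07 against 67NR 1 was higher and 2 were lower. These are 71.4% and 42.9% of the 7, beside the same shares of all genes. The summed intensity of the 12 named was 1160 to 1340 in 4T1, 3020 to 4480 in 4T07 and 2750 to 3700 in 67NR. The part of macrophages, fibroblasts and pericytes in the iron genes higher in 67NR, Slc11a2 and Steap3, was not tested.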

How the data were processed

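Tumor cells of each line were sorted as GFP-negative and CD45-negative, and their total RNA was amplified, labeled with biotin and hybridized to Illumina bead arrays. The authors deposited a linear intensity for each of 45281 probes and 9 arrays, neither background-subtracted nor normalized, and a detection p-value for each. They also deposited log2 values of 22834 probes, which hold the same quantiles on every array (median 7.48). The sources used here do not state how they processed the arrays. Probes were named through the platform annotation (19281 probes with 1 gene, 10 with several, 3543 with none).

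Background was removed from the deposited intensities, and quantiles were equalized between arrays, by the neqc function of limma 3.58.1 (R 4.3.3) with an offset of 16. It estimated the negative controls through the detection p-values. The filter on dim probes asked for detection (p under 0.05) on 3 or more arrays, which 15686 named probes met, and a gene was represented by its brightest such probe. One limma model of the 3 lines (lmFit, then eBayes) was fitted to the 10021 genes, and p-values were adjusted by the Benjamini-Hochberg method. The fit was tested on simulated data. Depth has no counterpart on arrays, and 3 arrays a line limit the precision.

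Besides all 10 iron genes, the text names up to 3 genes of each pathway list with the largest called change per comparison, the most similar profiles, and markers that move with a result. The members and lists were chosen with earlier results of these data known. Promoter sequences are from RefSeq (GRCm38.p6), and figures were drawn with matplotlib 3.10.9.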

Additional observations from a re-analysis of the deposited data

How the results depend on the processing

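The results were recomputed without background correction, with normexp (offset 50), with median centring, from the deposited log2 values, without the filter on dim probes or with a stricter one, from the mean of all kept probes, from the 2 compared lines alone, with a replicate block, with the methods' test (two-tailed, unpaired) and with any 1 array left out, the last also with the probe of each gene kept, an alternative chosen after seeing the data. Of the 13 calls on iron genes 10 held under all 28 alternatives. The exceptions were Slc11a2 and Ncoa4 in 4T07 against 67NR and Slc11a2 in 4T1 against 4T07. In 4T1 against 4T07, 1 iron gene in place of 2 was called under median centring, with the deposited values and with the methods' test, and 1 to 3 with an array left out. The methods' test called 13 further iron genes and 1835 genes in all there, in place of 23 and 2985.

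Differences that were not called changed sign as follows. With the mean of all probes, where probes disagree, Fth1 gave 0.04 and Ireb2 -0.10 in 4T1 against 67NR, Ireb2 0.13 in 4T07 against 67NR, and Ncoa4 0.06 and Ireb2 -0.23 in 4T1 against 4T07. Median centring gave 0.08 for Ireb2 in 4T07 against 67NR, where the cause was not tested. Leaving out an array gave -0.10 to 0.04 for Fth1 and -0.01 to 0.23 for Aco1 in 4T1 against 67NR, -0.17 to 0.10 for Ireb2 in 4T07 against 67NR, and -0.07 to 0.08 for Fth1 in 4T1 against 4T07. With probes kept, Fth1 gave 0.01 without 4T1 replicate 3 and 0 without 67NR replicate 2 in 4T1 against 67NR.

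With only the background correction left out, Steap3 gave -0.95 in 4T1 and -0.77 in 4T07 against 67NR, and Slc11a2 gave -1.20 and -0.88. With the deposited values, whose processing may differ in more than this, Steap3 gave -0.85 and -0.68, and Slc11a2 -1.06 and -0.78. All were called. Arrays of different lines with the same replicate number did not deviate together (correlations of -0.17 to 0.15), and the number was not taken to pair them. The replicate block left 5, 6 and 2 iron genes called and changed no call on them. The sources used here do not give the slides, so that no fit with the slide as a block was run.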
